A study of Danio rerio with 28 samples.

Results

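Genes of inflammation (10) were followed through the ablation and regrowth of hepatocytes in the adult zebrafish liver. They were the cytokines il1b, tnfa, tnfb, il6, il11a, il34, csf1a, csf1b and tnfsf14, and the feedback inhibitor socs3a. The genes were chosen by name, and all 10 of the 10 had a row among the 27652 genes of the count tables. Their UMIs, which are counts of tagged transcripts after removal of PCR copies (unique molecular identifiers), were summed for each library over macrophage-like, neutrophil-like, lymphocyte-like and BEC-like cells, BECs being biliary epithelial cells. Levels are given as CPM, the UMIs of a gene scaled to counts per 1e6 UMIs of the same sum.

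The cytokines of this set carry signals between immune cells and the cells around them. Il1b is made as a precursor that inflammasome caspases cleave, tnfa and tnfb are the TNF-like ligands of zebrafish, and tnfsf14 is a further ligand of the TNF superfamily that lymphocytes of mammals are known to make. Il6 and il11a act through receptors that share the subunit encoded by il6st and drive JAK-STAT signaling, which induces socs3a, an inhibitor of that pathway. Il34, csf1a and csf1b are ligands of the CSF1 receptor, on which macrophages depend. In the injured liver of mammals, the counterparts of il1b, tnfa and il6 come largely from resident and recruited macrophages and neutrophils.

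Drop-Seq, a droplet method for single-cell RNA sequencing, was run on 28 libraries. The uninjured mCherry+ group, the mock group and the 0 dpa, 1 dpa, 2 dpa, 3 dpa and 7 dpa groups (days post ablation) had 3 libraries each. All of these 21 libraries were of mCherry+ cells sorted from livers of fish with the transgenes Tg(Tp1:CreERT2), the switch Tg(-3.5ubb:LOXP-EGFP-LOXP-mCherry) and, for ablation, Tg(fabp10a:CFP-NTR), so the controls carried all of these as well. In these fish a Notch-responsive promoter drives inducible Cre, which switches cells from EGFP to mCherry after 4-hydroxytamoxifen, given to larvae. The authors report that only BECs express this Cre within the liver. Their mCherry+ sort served to enrich BECs and cells derived from them. Why cells with immune markers were in this sort was not tested, and they may differ from the immune cells of the whole liver. The fabp10a promoter restricts the nitroreductase to hepatocytes, which metronidazole then kills. A GFP+ sort gave 1 uninjured library, and 6 libraries held cells of uninjured TU livers, not selected by a reporter. By the authors' methods, cells of wild-type fish were sorted as positive for Hoechst and negative for propidium iodide. They state that adult males were used for the uninjured liver. The number of fish behind a library is not given in the sources used here, and nothing says that replicates came from separate fish, so p-values measure the spread between these libraries.

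Totals were 926798 to 6893275 UMIs in the 21 mCherry+ libraries. Barcodes whose total lay above their library's mean were taken as cells, which gave 18802 cells in the 21 mCherry+ libraries. That cutoff was 185.4 to 206.7 UMIs in mock libraries and 544.3 to 638.5 UMIs at 1 dpa. It was 616.1 to 762.8 UMIs at 2 dpa, 1157.9 to 1378.7 UMIs at 3 dpa and 742.0 to 838.8 UMIs at 7 dpa. Median depth per cell differed widely between groups, from 435 to 486 UMIs in mock libraries up to 3507 to 4038.5 UMIs at 3 dpa. In the mCherry+ and GFP+ libraries, a barcode found among the called cells of more than 1 library was carried by 0.446% of cells. Clusters were named from markers and are therefore called "-like".

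The defining markers of each class were high in its cells in the mCherry+ libraries. Macrophage-like cells (2712) had 609.6 CPM of marco and 1370 CPM of c1qb, against 10.6 and 19.7 CPM in the other cells. Neutrophil-like cells (594) had 15870 CPM of lyz and 191.8 CPM of mpx, against 15.1 and 1.497 CPM elsewhere. Lymphocyte-like cells (4110) had 516.7 CPM of ccl38.6 and 199.7 CPM of il2rb, against 6.21 and 4.39 CPM, while the B cell genes cd79a and cd79b reached only 6.09 and 1.06 CPM. BEC-like cells (4558) had 5503 CPM of anxa4 and 1295 CPM of epcam, against 863.5 and 187.0 CPM. A further cluster of 276 cells, of which 237 were from 0 dpa, was led by mmp13a, a neutrophil marker. It had 2456 CPM of mmp13a, against 23.7 CPM in all other cells, with mpx at 0. Its macrophage markers were mixed and c1qb lay far below that of macrophage-like cells. Against all other cells, c1qb was 297.6 and 218.5 CPM and csf1ra 24.8 and 10.3 CPM. Mfap4 was 114.1 and 113.7 CPM, and mpeg1.1 was 11.2 and 27.4 CPM. This group is called the mmp13a-led cluster and was kept apart.

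The shares of the cell classes differed widely between groups, and the total of a cytokine over a library moves with them. They are shares of the called cells of the mCherry+ sort and not of the cells of the liver. Macrophage-like cells made up 46.5% ± 3.53 of cells at 1 dpa and 10.5% ± 0.410 at 0 dpa, against 15.5% ± 0.489 in mock (SD, n = 3 each). Neutrophil-like cells made up 9.73% ± 0.592 at 0 dpa and 8.65% ± 1.56 at 1 dpa, against 1.11% ± 0.1101 in mock. Lymphocyte-like cells were 3.67% ± 0.738 at 1 dpa and 0.791% ± 0.382 at 3 dpa, against 40.8% ± 1.71 in mock. BEC-like cells were 58.6% ± 2.67 at 2 dpa, against 18.2% ± 0.921 in mock. Each of these shares had libraries that did not overlap those of mock, where the exact two-sided permutation test gave p = 0.1, the smallest that 3 against 3 libraries allow. By 7 dpa only 26 macrophage-like, 28 lymphocyte-like and 60 BEC-like cells and 0 neutrophil-like cells were called over 3 libraries. Lymphocyte-like cells had a median depth of 442 UMIs in mock, below the cutoff for a cell at 1, 2, 3 and 7 dpa. Shallow cells could thus be called in mock and missed later, and the part of this in the shares was not tested. At 7 dpa a single library had 10 or more macrophage-like cells, and at 3 dpa a single library had 10 or more lymphocyte-like cells, so those groups were not tested. Fewer cells of a class and less RNA per cell cannot be told apart in library totals, and levels within a class are per UMI of that class. The clusters that made up a class also changed: cluster 10 held 75.3% of the macrophage-like cells in mock, cluster 15 73.8% at 0 dpa, and cluster 5 49.8% at 1 dpa, and among BEC-like cells cluster 16 held 48.9% at 1 dpa and cluster 7 34.9% at 2 dpa, against 49.7% for cluster 9 in mock. Among lymphocyte-like cells cluster 1 held 37.1% and cluster 12 28.7% at 2 dpa, against 48.9% for cluster 1 and 20.1% for cluster 25 in mock.

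The cell class that held the UMIs of each gene differed by gene and by time. Of the 577 il1b UMIs in called cells at 1 dpa, 81.1% lay in macrophage-like cells and 13.9% in neutrophil-like cells, whereas at 0 dpa 57.6% of 99 UMIs lay in neutrophil-like cells, 25.3% in the mmp13a-led cluster and 11.1% in macrophage-like cells. In mock, 63.3% of 49 il1b UMIs were macrophage-like. Tnfa UMIs were 93.9% macrophage-like at 1 dpa (of 98), and tnfb UMIs were 85.0% macrophage-like at 1 dpa (of 606), against 22.4% of 232 in mock, where 62.1% were lymphocyte-like. Tnfsf14 UMIs were mostly lymphocyte-like, with 88.6% of 44 at 0 dpa and 84.6% of 39 at 2 dpa, against 78.8% of 104 in mock. Socs3a UMIs were 63.5% BEC-like at 2 dpa (of 510) and 39.3% in mock (of 211). These shares move with the number and depth of the cells of a class. BEC-like cells were 58.6% of cells at 2 dpa and 18.2% in mock, while their socs3a level averaged 57.1 and 223 CPM. Macrophage-like cells were 46.5% of cells at 1 dpa and 15.5% in mock, while their tnfb level averaged 125.5 and 124.5 CPM. At 3 and 7 dpa, 77.7% and 90.6% of the socs3a UMIs lay in hepatocyte-like cells.

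**Figure D1:**
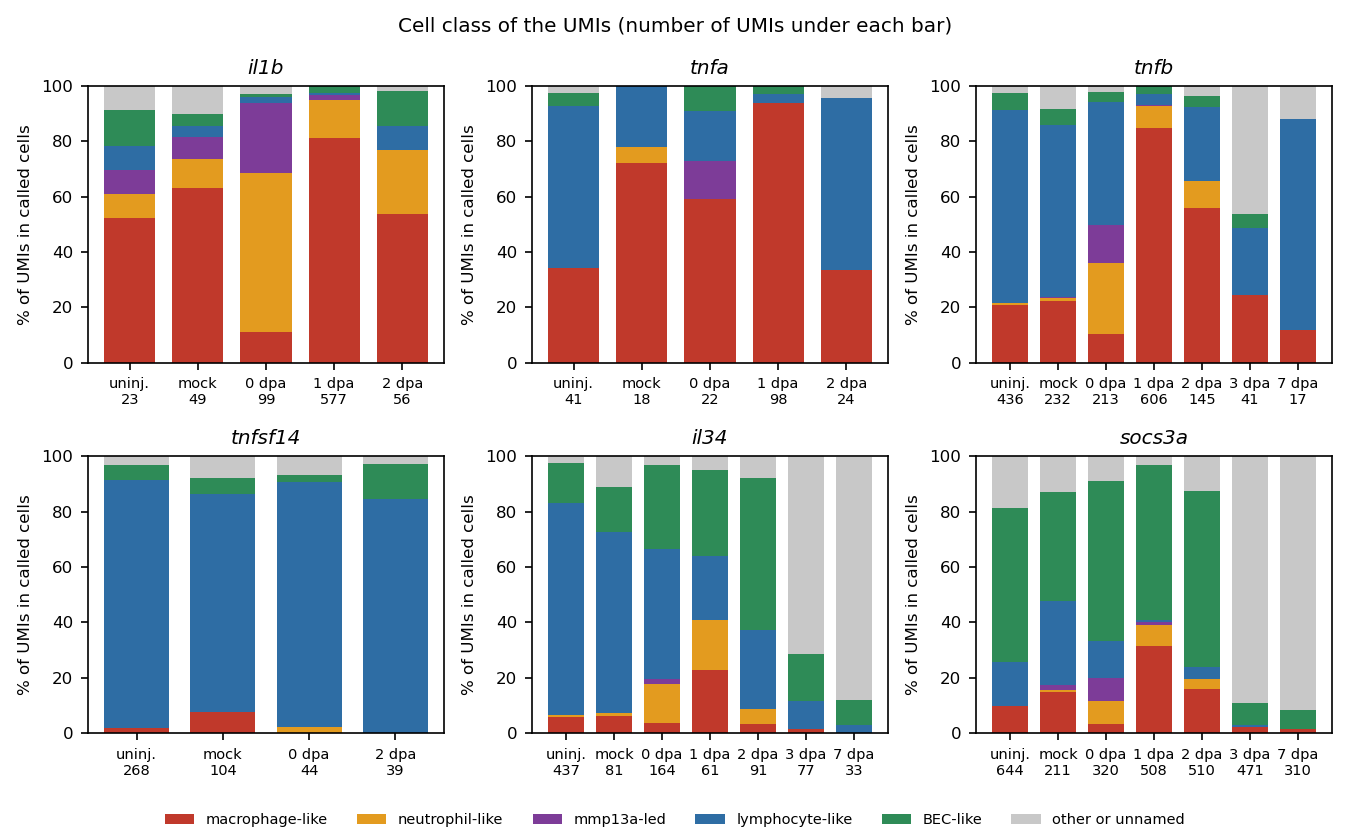
Share of each gene's UMIs in called cells (vertical axis, %) by cell class (colors) for each group of mCherry+ libraries from uninjured and mock to 7 dpa (horizontal axis), with the number of UMIs under each bar and only groups with at least 10 UMIs drawn. The il1b bar is 81.1% macrophage-like at 1 dpa, against 63.3% in mock, and 57.6% neutrophil-like at 0 dpa.

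Levels within a cell class were tested on raw UMI sums per library with edgeR's quasi-likelihood test, and a gene was called at a Benjamini-Hochberg adjusted p under 0.05 over all genes tested. Of the 40 pairs of gene and class, 21 had too few UMIs for the fit, among them every pair with il11a, csf1a or csf1b. In macrophage-like sums 10 of 42 tests of the 7 fitted genes were called. There, 0 genes were called at 0 dpa against mock, where 6.12% of all 8657 genes tested were called, 2 at 1 dpa (33.1% of all genes), 3 at 2 dpa (24% of all genes) and 2 at 3 dpa (9.22% of all genes). Between times, 1 gene was called at 1 dpa against 0 dpa (22.7% of all genes) and 2 at 2 dpa against 1 dpa (15.6% of all genes). With 7 genes tested in each comparison, these counts are read only beside the share over all genes.

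In neutrophil-like sums 0 of 15 tests were called, and 0 had an unadjusted p under 0.05 in edgeR or were called by DESeq2. Of all 1324 genes tested there, 2.87% were called at 0 dpa, 5.06% at 1 dpa and 12.6% at 2 dpa against mock, 8.91% at 1 dpa against 0 dpa and 13.7% at 2 dpa against 1 dpa. In lymphocyte-like sums 3 of 24 tests were called. These were 0 of 6 at 0 dpa (3.3% of all 8394 genes), 1 at 1 dpa (9.35% of all genes), 2 at 2 dpa (17% of all genes) and 0 at 7 dpa (3.13% of all genes). In BEC-like sums 8 of 15 tests of il34, socs3a and tnfb were called. These were 0 at 0 dpa (15.5% of all 8872 genes), 3 at 1 dpa (38.5% of all genes), 3 at 2 dpa (44.5% of all genes), 2 at 3 dpa (22.8% of all genes) and 0 at 7 dpa (3.7% of all genes).

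The fit scales each sum by a factor from a set of mid to high genes without ribosomal and mitochondrial genes, and the fitted changes therefore differ from ratios of CPM. In macrophage-like sums the factors were 1.27 to 1.28 at 1 dpa, against 0.920 to 0.944 in mock, and the median of all genes was -0.39 (log2) at 1 dpa against mock. With default TMM factors that median was 0.27, and with library size alone 0.05. The calls at 1 dpa were 977 up and 1885 down, against 1941 up and 1117 down with default TMM factors. In BEC-like sums at 2 dpa they were 1512 up and 2433 down, against 2573 up and 1469 down with those factors, and in lymphocyte-like sums at 1 dpa 580 up and 205 down, against 133 up and 860 down. Changes at 1 dpa are thus relative to a scale that differs between methods by more than many of the changes themselves. Values under other scalings are given for some of the calls that they turn. Calls gained with DESeq2 in lymphocyte-like sums are counted but not given one by one.

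**Figure D2:**
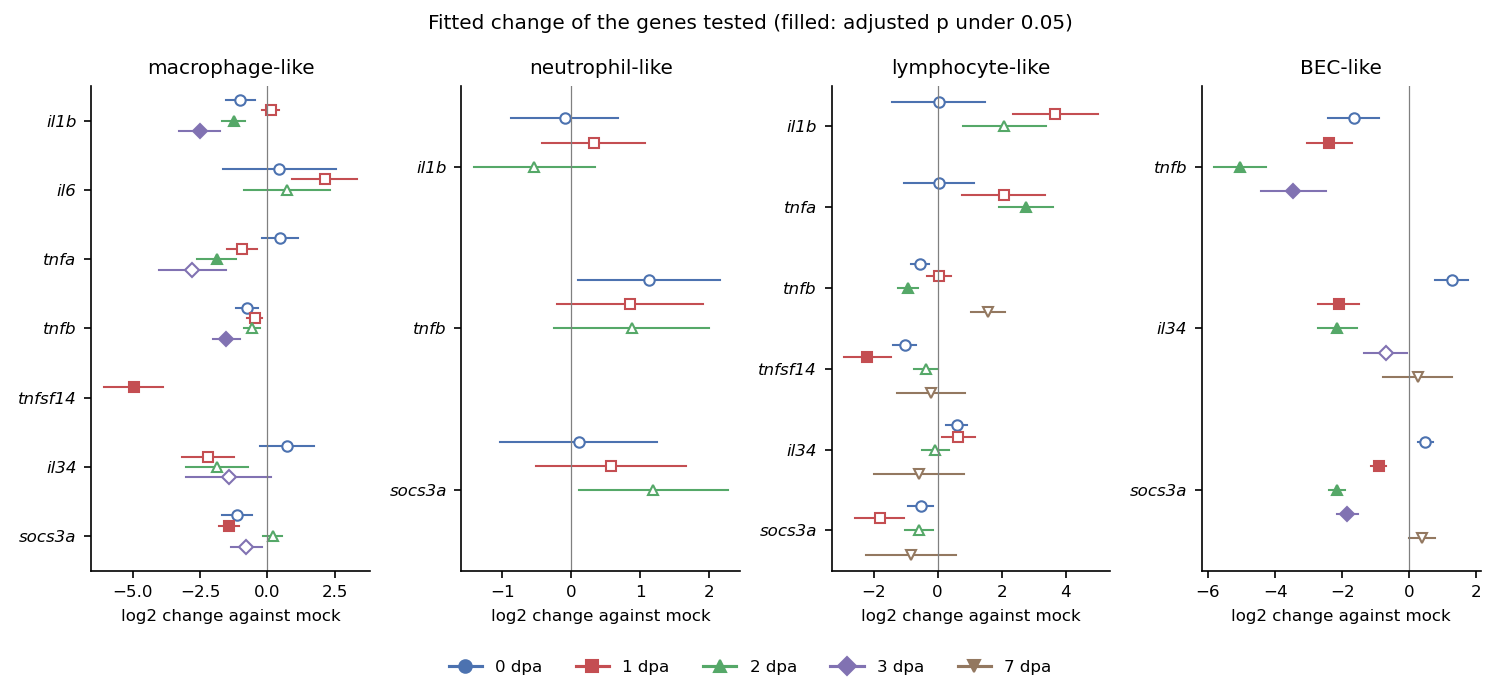
Fitted log2 change against mock with its standard error (horizontal axis) for each gene tested (vertical axis) in 4 cell classes, by dpa (colors and symbols); filled symbols had an adjusted p under 0.05, and tests with 0 UMIs on a side are not drawn. The largest drawn falls are those of tnfb in BEC-like cells at 2 dpa (-5.04) and tnfsf14 in macrophage-like cells at 1 dpa (-4.97).

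The level of il1b in macrophage-like cells was above mock in every 1 dpa library and below it in every 0, 2 and 3 dpa library. Its levels were 62.7, 101.6 and 67.5 CPM in the mock libraries, 9.62, 60.1 and 38.2 CPM at 0 dpa, 115.5, 118.2 and 105.8 CPM at 1 dpa, 50.1, 48.6 and 14.7 CPM at 2 dpa, and 24.6, 13.6 and 0 CPM at 3 dpa. All 1 dpa libraries lay above all others, and all 0, 2 and 3 dpa libraries lay below all mock libraries. The uninjured mCherry+ libraries, given further below, also lay below all mock libraries. The 7 dpa libraries held 0 il1b UMIs in 26 cells, which allows a level of up to 75.5 CPM at 3 UMIs, against a mean of 77.3 CPM in mock, so the depth at 7 dpa could not separate the level from all mock libraries. At 1 dpa the sum of il1b was 468 UMIs in macrophage-like cells, against 31 in mock, from 1173 cells, against 417 cells in mock. Summed neutrophil markers in these macrophage-like cells were 321 to 351 CPM at 1 dpa, against 13.9 to 20.3 CPM in mock, and their part in the il1b level was not tested.

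The comparison of il1b at 1 dpa with mock depended on the scale. The log2 change at 1 dpa against mock was 0.12 ± 0.32 (SE, adjusted p = 0.803, edgeR), whereas default TMM factors gave 0.80 (adjusted p = 0.0299). At 1 dpa against 0 dpa the change was 1.13 ± 0.45 (adjusted p = 0.0524), which was called with default TMM factors (2.00), library size scaling (1.65) and DESeq2 (2.11). At 2 dpa against 1 dpa il1b fell by 1.37 ± 0.30 on the log2 scale (adjusted p = 0.000142), and this held under every alternative run, with values from -1.90 to -0.96. Il1b also fell at 2 dpa against mock by 1.25 ± 0.43 (adjusted p = 0.0204) and at 3 dpa by 2.51 ± 0.77 (adjusted p = 0.0161). The call at 2 dpa was lost with default TMM factors (-0.95, adjusted p = 0.0879), library size scaling and DESeq2, and without 2 dpa replicate 3 (-0.80) or mock replicate 2 (-1.06). The 3 dpa value rests on 3 UMIs, with a ratio of 0.181 to mock (95% counting interval 0.0354 to 0.580), and its call was lost without 3 dpa replicate 2 or 3 or mock replicate 2.

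**Figure D3:**
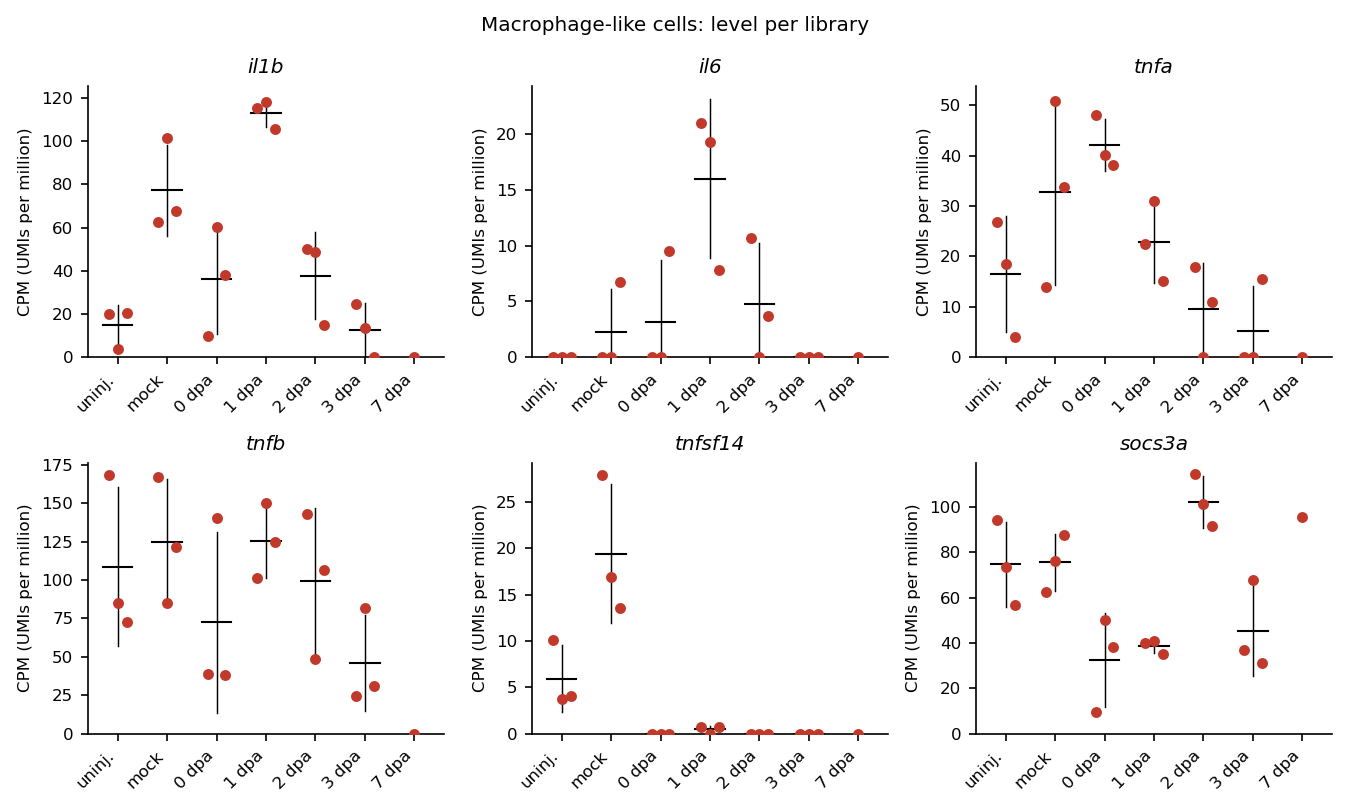
Level (CPM, vertical axis) of 6 genes in macrophage-like cells for each mCherry+ library (points) by group (horizontal axis), with the mean (bar) and SD (line) where 3 libraries had at least 10 cells; smaller sums are not drawn. For il1b the 1 dpa libraries sit between 105.8 and 118.2 CPM, against 62.7 to 101.6 CPM in mock, and the 2 dpa libraries between 14.7 and 50.1 CPM.

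The share of macrophage-like cells with an il1b UMI was 17.5% at 1 dpa, against 5.04% in mock. Median depth was 3034 UMIs in the 1 dpa cells and 818 UMIs in the mock cells. With each cell thinned to 500 UMIs and shallower cells left out (0 cells at 1 dpa, 118 in mock), the shares were 5.12% (exact 95% interval 3.93 to 6.53) at 1 dpa and 5.02% (2.83 to 8.14) in mock. In thinned BEC-like cells, which are not known as a source of il1b, the share was 0.544% at 1 dpa and 0 of 264 cells in mock, which allows a share of up to 1.14% (median depths 1808 and 530 UMIs), so the macrophage-like share at 1 dpa lay above that of BEC-like cells. Barcodes outside cells held 75.3 CPM of il1b at 1 dpa and 16.5 CPM in mock.

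At 0 and 1 dpa neutrophil-like cells had il1b levels above those of macrophage-like cells in every library. They were 0, 518 and 0 CPM in mock, 187.7, 199.2 and 209.7 CPM at 0 dpa, 247.6, 293.6 and 290.0 CPM at 1 dpa, and 174.5, 0 and 211.5 CPM at 2 dpa. The mock value came from 5 UMIs in a single library. Summed macrophage markers in these cells were 242 to 301 CPM at 1 dpa, against 0 to 135 CPM in mock. The 1 dpa libraries lay above the 0 dpa libraries, while the mock libraries spanned both. No change was called against mock, with 0.32 ± 0.74 at 1 dpa (adjusted p = 0.882), and at 1 dpa against 0 dpa the change was 0.42 ± 0.38 (adjusted p = 0.583). The 30 mock cells of this class gave 22980 UMIs in all, so that differences from mock of this size were not detectable.

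**Figure D4:**
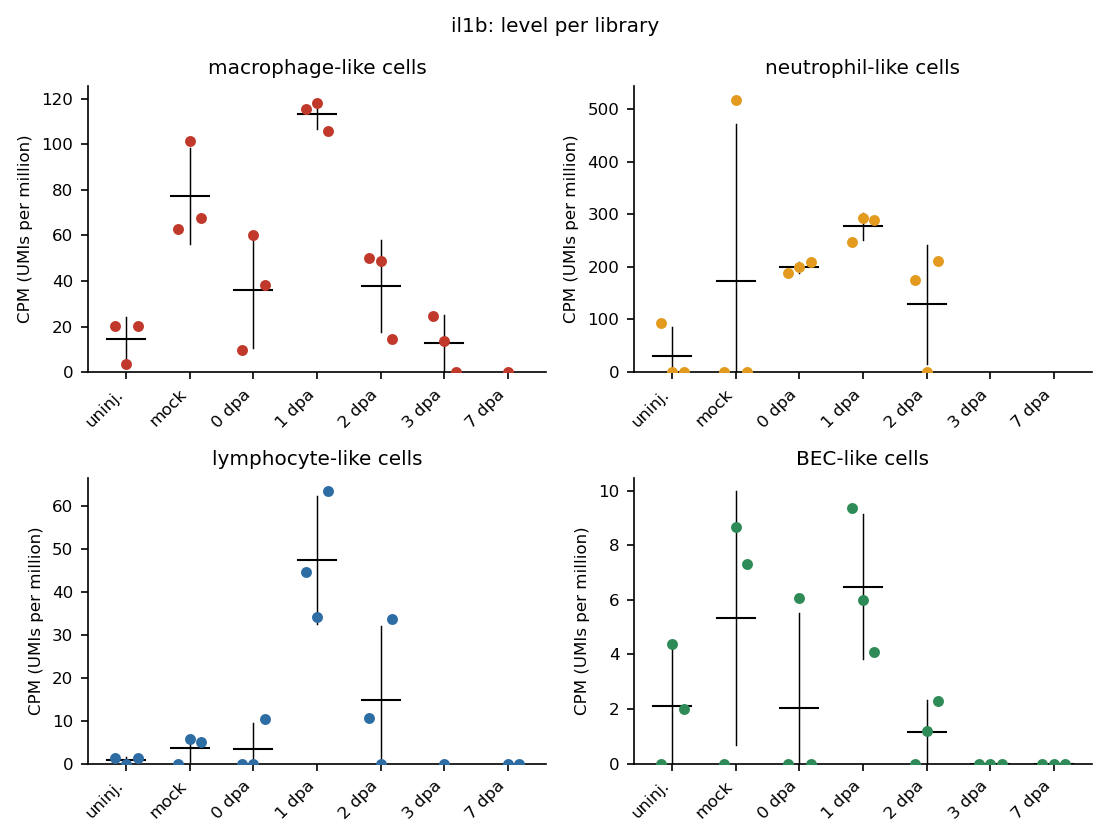
Level of il1b (CPM, vertical axis, a separate scale in each panel) for each mCherry+ library (points) by group (horizontal axis) in 4 cell classes, with the mean (bar) and SD (line) where all 3 libraries had at least 10 cells (neutrophil-like 5). Neutrophil-like libraries sit between 247.6 and 293.6 CPM at 1 dpa, and the BEC-like libraries at 9.36 CPM or less.

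Il1b in the other classes was low. In lymphocyte-like cells it was 44.6, 34.2 and 63.5 CPM at 1 dpa, against 0, 5.83 and 4.97 CPM in mock, from only 5 and 2 UMIs. These libraries did not overlap, and the change of 3.68 ± 1.32 had an adjusted p of 0.0556 in edgeR. The 1 dpa level lay below that of barcodes outside cells (58.0 to 87.9 CPM), and the summed markers of macrophages in these cells were 290 to 572 CPM at 1 dpa, against 64.6 to 162 CPM in mock. The part of free RNA or of other cells in this value was not tested. In BEC-like cells il1b stayed at 9.36 CPM or less in every library, and mock reached 8.65 CPM.

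The mmp13a-led cluster carried il1b at 44.96, 29.9 and 35.7 CPM in the 0 dpa libraries (25 UMIs). That was within the range of the macrophage-like cells at 0 dpa. Joining this cluster to the macrophage-like cells, an alternative chosen after seeing the data, made 14 of 42 tests called and lowered il1b at 0 dpa against mock by 1.33 on the log2 scale (adjusted p = 0.0112), against -1.01 (adjusted p = 0.317) without it.

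Il6 was found almost only in macrophage-like cells at 1 dpa, where 65 of the 68 UMIs of called cells lay. The levels were 21.0, 19.3 and 7.84 CPM at 1 dpa, against 0, 0 and 6.75 CPM in mock, which held a single UMI. Each 1 dpa library lay above each mock library. The change of 2.13 ± 1.22 was not called (adjusted p = 0.167), and default TMM factors gave 2.74 (adjusted p = 0.0410). At 2 dpa 4 UMIs remained (10.7, 0 and 3.66 CPM), and 0 were found at 3 dpa. At 0 dpa, 10 of 13 il6 UMIs lay in the mmp13a-led cluster, at 16.9, 16.6 and 8.92 CPM, against 1 UMI in macrophage-like cells. Mock had 0 il6 UMIs in the 13 cells of this cluster, which allows up to 83.2 CPM.

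Il11a, which shares the il6st subunit of the receptor, was rarely detected. It had 12 UMIs in all 25842 called cells of the series and 0 in macrophage-like cells of mock and every dpa group. At 1 dpa that allows a level of up to 0.723 CPM in macrophage-like cells.

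Of the TNF ligands, tnfb was the more abundant by UMIs. In macrophage-like cells it stood at 101.5, 150.1 and 124.8 CPM at 1 dpa, against 167.3, 84.7 and 121.6 CPM in mock. These libraries overlapped, and the change was -0.47 ± 0.27 (adjusted p = 0.170). At 3 dpa it was 24.6, 81.6 and 31.1 CPM, below every mock library, from 10 UMIs. It fell by 1.53 ± 0.50 there (adjusted p = 0.0297), a call that was lost with DESeq2 (adjusted p = 0.0570) and without mock replicate 1 or 3 dpa replicate 1 or 3. The summed hepatocyte markers in these macrophage-like cells were 6983 to 9772 CPM at 3 dpa, against 641 to 783 CPM in mock, and their part in the 3 dpa falls was not tested.

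Tnfa, the other TNF ligand, had 92 macrophage-like UMIs at 1 dpa, against 13 in mock. Its level was 22.4, 31.0 and 15.03 CPM at 1 dpa, against 13.9, 50.8 and 33.8 CPM in mock, with overlap (-0.94 ± 0.55, adjusted p = 0.172). At 2 dpa it was 17.9, 0 and 11.0 CPM. Tnfa fell there against mock by 1.88 ± 0.72 (adjusted p = 0.0414), although the highest 2 dpa library lay above the lowest mock library. This call was lost under 13 of 26 alternatives, among them all other scalings (-1.58 with default TMM factors, adjusted p = 0.0924) and the removal of mock replicate 2 or 3 or of 2 dpa replicate 2 or 3.

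Lymphocyte-like cells went the other way for tnfa at 2 dpa. The levels were 52.6, 44.7 and 42.3 CPM at 2 dpa (5 UMIs in each library), against 0, 5.83 and 14.9 CPM in mock (4 UMIs). Every 2 dpa library lay above every mock library. Tnfa rose by 2.76 ± 0.84 (adjusted p = 0.00933), which was lost with DESeq2 (2.37, adjusted p = 0.0628) and without mock replicate 1 (2.15, adjusted p = 0.0764). Cluster 12 held 28.7% of these cells at 2 dpa and was not among the leading 2 clusters of mock, and the part of that shift in the tnfa and tnfb levels was not tested. In a joint fit the change at 2 dpa in macrophage-like minus that in lymphocyte-like cells was -4.26 (adjusted p = 0.0122).

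In lymphocyte-like cells tnfb was 84.1, 80.5 and 186.0 CPM at 2 dpa, against 287.4, 192.4 and 278.4 CPM in mock, and the libraries did not overlap. It fell by 0.93 ± 0.32 (adjusted p = 0.0259), a call lost without mock replicate 1 or 3 or 2 dpa replicate 1 or 2 and with clustering on raw counts (-0.72). At 1 dpa it was 245.5, 102.6 and 349.3 CPM and overlapped mock, and the sign of the change depended on the scale (0.05, against -1.11 with default TMM factors, adjusted p = 0.0202). At 7 dpa, where 2 libraries had at least 10 cells, it was 523.2 and 440.6 CPM from 12 UMIs, above mock, with an adjusted p of 0.106.

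In BEC-like cells tnfb was low and fell further. It was 49.1, 26.0 and 36.6 CPM in mock, 14.7, 1.498 and 6.82 CPM at 1 dpa, 0.544, 1.21 and 1.38 CPM at 2 dpa and 0, 0 and 7.04 CPM at 3 dpa, and none of the dpa libraries overlapped mock. The log2 changes were -2.38 ± 0.66 at 1 dpa (adjusted p = 0.00194), -5.04 ± 0.77 at 2 dpa (adjusted p = 4.45e-09) and -3.45 ± 0.97 at 3 dpa (adjusted p = 0.00413), each called under every alternative in which it could be fitted. The 3 dpa value rests on 2 UMIs (ratio 0.0808, 95% counting interval 0.00892 to 0.352). Summed lymphocyte markers in these cells were 2.73 to 6.69 CPM at 1 dpa and 4.89 to 9.17 CPM at 2 dpa, against 80.5 to 121 CPM in mock, and barcodes outside cells held 47.5 CPM of tnfb at 1 dpa, 35.9 CPM at 2 dpa and 53.2 CPM in mock. The part of lymphocyte RNA in the mock level was not tested.

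Most UMIs of tnfsf14 lay in lymphocyte-like cells. It stood at 130.6, 180.7 and 129.3 CPM in mock, 68.7, 75.8 and 63.0 CPM at 0 dpa, 67.0, 0 and 0 CPM at 1 dpa, and 63.1, 107.3 and 126.8 CPM at 2 dpa. The 0, 1 and 2 dpa libraries all lay below the mock libraries. It fell by 2.19 ± 0.73 at 1 dpa against mock (adjusted p = 0.0312), from 3 UMIs in 92 cells (ratio 0.196, 95% counting interval 0.0395 to 0.592). That call was lost without mock replicate 2 or 1 dpa replicate 2 or 3 and with cells of at least 300 UMIs (-2.03, adjusted p = 0.0632). The changes at 0 dpa (-1.03 ± 0.36, adjusted p = 0.1001) and at 2 dpa (-0.38 ± 0.38, adjusted p = 0.539) were not called.

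In macrophage-like cells tnfsf14 had 2 UMIs at 1 dpa and 0 at 2 dpa, against 8 in mock. The levels were 0.700, 0 and 0.653 CPM at 1 dpa, against 27.9, 16.9 and 13.5 CPM in mock, with no overlap. The fitted change at 1 dpa was -4.97 ± 1.0999 (adjusted p = 5.91e-05), and the ratio of pooled levels was 0.0247 (95% counting interval 0.00255 to 0.124). At 2 dpa tnfsf14 was called as well (adjusted p = 0.00441) and was at least 5.20-fold lower than in mock, taking 3 UMIs over the group for 0. Summed lymphocyte markers in macrophage-like cells were 6.71 to 10.4 CPM at 1 dpa and 21.5 to 32.4 CPM at 2 dpa, against 108 to 186 CPM in mock, and their part in this change was not tested. BEC-like cells had too few tnfsf14 UMIs for the fit, with 0 at 1 dpa and 6 in mock.

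**Figure D5:**
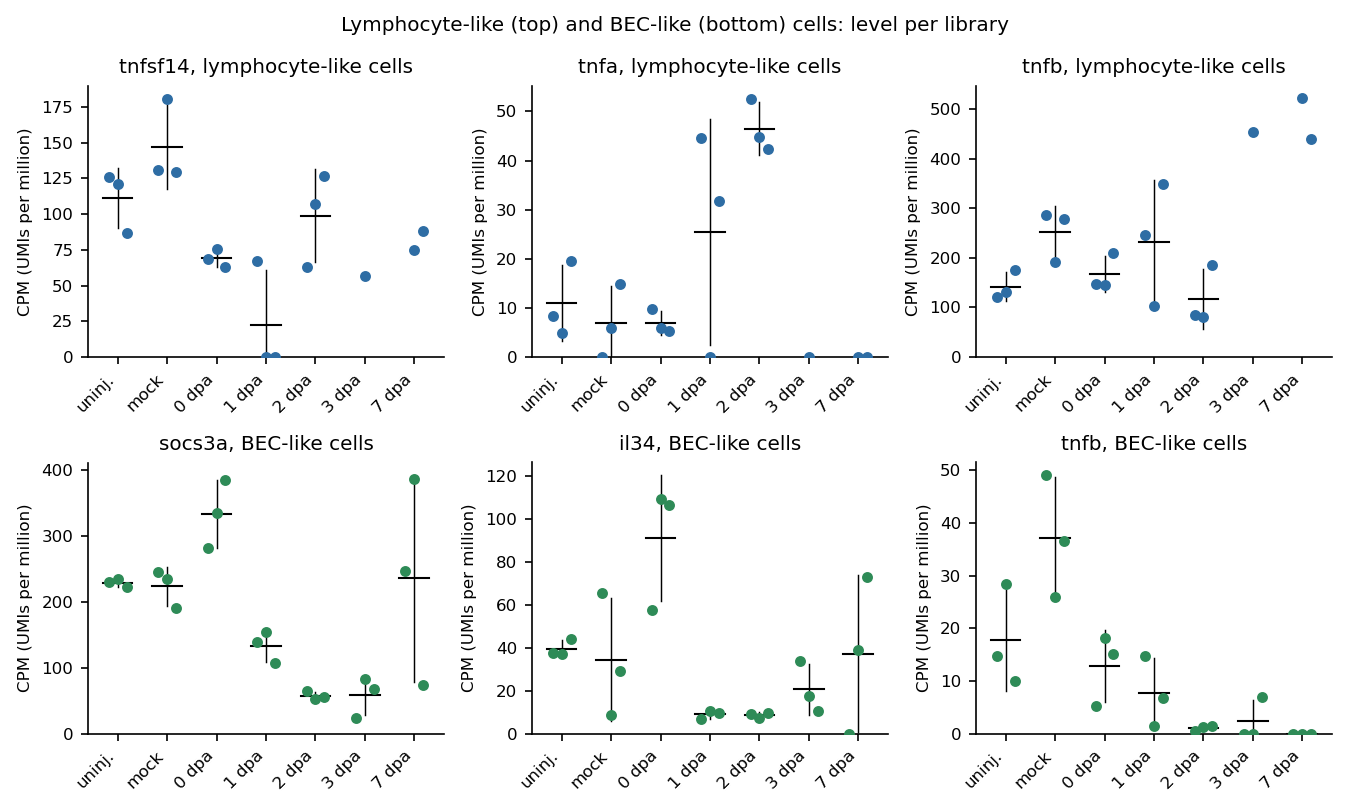
Level (CPM, vertical axis) of tnfsf14, tnfa and tnfb in lymphocyte-like cells and of socs3a, il34 and tnfb in BEC-like cells for each mCherry+ library (points) by group (horizontal axis), with the mean (bar) and SD (line) where 3 libraries had at least 10 cells. Socs3a in BEC-like cells sits between 52.0 and 64.2 CPM at 2 dpa, against 190.1 to 245.3 CPM in mock, and tnfa in lymphocyte-like cells between 42.3 and 52.6 CPM at 2 dpa, against 0 to 14.9 CPM in mock.

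Of the CSF1 receptor ligands il34 had the most UMIs. It had 1056 UMIs in called cells of the series, against 22 for csf1a and 54 for csf1b. Lymphocyte-like cells held it at 117.7, 192.5 and 105.0 CPM at 0 dpa and 156.2, 171.1 and 63.5 CPM at 1 dpa, against 104.5, 87.4 and 89.5 CPM in mock. The 0 dpa libraries lay just above mock, but neither change was called (0.59 ± 0.34, adjusted p = 0.445, and 0.65 ± 0.51, adjusted p = 0.493). Uninjured mCherry+ libraries had 178.0, 145.6 and 138.9 CPM.

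In BEC-like cells il34 was 65.4, 8.65 and 29.3 CPM in mock, 57.3, 109.2 and 106.3 CPM at 0 dpa, 6.69, 10.5 and 9.55 CPM at 1 dpa and 9.24, 7.26 and 9.63 CPM at 2 dpa. The mock libraries were wide apart and overlapped all of the dpa groups. Il34 fell by 2.11 ± 0.62 at 1 dpa (adjusted p = 0.00368) and by 2.15 ± 0.58 at 2 dpa (adjusted p = 0.00110). Summed lymphocyte markers in these BEC-like cells were 2.73 to 6.69 CPM at 1 dpa and 4.89 to 9.17 CPM at 2 dpa, against 80.5 to 121 CPM in mock. The il34 level outside cells averaged 18.3 CPM at 1 dpa and 36.6 CPM at 2 dpa, against 56.8 CPM in mock, and the part of either in the il34 change was not tested. Both calls rested on mock replicate 1, without which the changes were -1.34 (adjusted p = 0.250) and -1.38 (adjusted p = 0.195). The change at 0 dpa was 1.27 ± 0.48 (adjusted p = 0.0573), and it was called with default TMM factors (1.52), library size scaling (1.38) and DESeq2 (1.57).

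Macrophage-like cells had little il34. It was 2.10, 2.52 and 5.23 CPM at 1 dpa, against 9.62, 40.1 and 9.56 CPM at 0 dpa, with no overlap, and fell by 2.93 ± 0.94 (adjusted p = 0.0122). The call was lost with default TMM factors (-2.09), DESeq2 (-2.11), cells of at least 300 UMIs (-1.98) and clustering on raw counts (-1.38) and without 0 dpa replicate 2 (-1.96, adjusted p = 0.393), and 0 dpa held only 6 UMIs. Neutrophil-like cells had 23 il34 UMIs at 0 dpa, at 110.4, 62.9 and 69.9 CPM, against a single UMI in mock, and were not fitted. The exact permutation test gave p = 0.3 for that difference.

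Csf1a and csf1b had at most 3 UMIs in any of the 4 classes in any group. Macrophage-like cells had 0 csf1a UMIs in mock and at every dpa, and csf1b had 3 at 1 dpa, against 2 in mock. In uninjured TU livers csf1b was highest in endothelial-like cells, with 13 UMIs or 22.4 CPM (95% counting interval 11.9 to 38.3). The mCherry+ sort did not yield this cell type as a named class.

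The feedback inhibitor socs3a could be fitted in all 4 classes, and BEC-like cells held most of its UMIs from 0 to 2 dpa. In BEC-like cells it was 245.3, 233.7 and 190.1 CPM in mock, 281.3, 333.8 and 384.8 CPM at 0 dpa, 139.1, 154.3 and 106.4 CPM at 1 dpa, 64.2, 52.0 and 55.04 CPM at 2 dpa, 24.1, 82.1 and 66.9 CPM at 3 dpa, and 246.6, 386.7 and 72.9 CPM at 7 dpa. The 0 dpa libraries lay above all mock libraries, those of 1, 2 and 3 dpa lay below them, and those of 7 dpa lay on both sides of mock. Socs3a fell by 2.15 ± 0.24 at 2 dpa (adjusted p = 1.06e-15) and by 1.85 ± 0.30 at 3 dpa (adjusted p = 1.53e-07), both under every alternative run.

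At 1 dpa socs3a fell in BEC-like cells by 0.90 ± 0.22 (adjusted p = 0.000437), which was lost with default TMM factors (-0.38, adjusted p = 0.171) and DESeq2 (-0.40). The 0 dpa change of 0.48 ± 0.22 was not called (adjusted p = 0.134), but default TMM factors (0.74, adjusted p = 0.0112) and DESeq2 (0.78) called it. Summed BEC markers of these cells were 12630 to 13040 CPM at 2 dpa, against 18360 to 19110 CPM in mock. Thinned to 500 UMIs per cell, 3.23% of BEC-like cells had a socs3a UMI at 2 dpa and 11.4% in mock, whereas the unthinned shares of 18.3% and 14.1% ran the other way, at median depths of 3671.5 and 530 UMIs. Lymphocyte-like cells had a thinned share of 4.22% at 2 dpa and 6.39% in mock.

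In macrophage-like cells socs3a was 39.9, 41.1 and 35.3 CPM at 1 dpa, and 114.5, 101.3 and 91.6 CPM at 2 dpa, against 62.7, 76.2 and 87.8 CPM in mock. The 1 dpa libraries lay below and the 2 dpa libraries above all mock libraries. At 0 dpa socs3a averaged 32.7 ± 20.8 CPM (SD, n = 3) from 10 UMIs, also below all mock libraries. That change was not called (-1.14 ± 0.56, adjusted p = 0.259), and the change at 1 dpa against 0 dpa was -0.27 ± 0.55 (adjusted p = 0.761). Socs3a fell at 1 dpa against mock by 1.41 ± 0.37 (adjusted p = 0.000962), a call lost with default TMM factors (-0.74, adjusted p = 0.0929) and DESeq2 (-0.70). At 2 dpa against 1 dpa it rose by 1.61 ± 0.27 (adjusted p = 1.35e-07), under every alternative run, while the change at 2 dpa against mock was 0.20 ± 0.36 (adjusted p = 0.736). Summed BEC markers in these macrophage-like cells were 1323 to 1354 CPM at 2 dpa, against 613 to 758 CPM at 1 dpa, and socs3a outside cells averaged 109.9 CPM at 2 dpa, against 119.8 CPM at 1 dpa. Their part in the socs3a level was not tested. The change at 2 dpa in macrophage-like minus BEC-like cells was 2.09 ± 0.40 (adjusted p = 2.44e-05), and that of tnfb was 4.18 ± 0.75 (adjusted p = 3.62e-06).

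The socs3a levels of the other classes were lower or carried few counts. Lymphocyte-like cells had 84.1, 62.6 and 59.2 CPM at 2 dpa, against 114.9, 104.9 and 119.3 CPM in mock (-0.58 ± 0.44, adjusted p = 0.388). They had 0, 34.2 and 63.5 CPM at 1 dpa, where the change of -1.82 ± 0.78 had an adjusted p of 0.138 and default TMM factors called it (-2.94, adjusted p = 0.000655). Neutrophil-like cells had 106.1, 125.8 and 181.3 CPM at 1 dpa, within the range of the mock libraries at 169.6, 0 and 134.6 CPM. In uninjured TU livers socs3a was highest in endothelial-like cells at 802.6 CPM (466 UMIs) and was 97.5 CPM in BEC-like cells.

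Differences between classes were tested in 9 joint fits, each of macrophage-like cells with 1 other class at 0, 1 or 2 dpa against mock. Of the 57 differences that could be fitted for these genes, 3 were called, which are the tnfa, socs3a and tnfb differences given above. The 57 include some that could not be called, because the other class had 0 UMIs in both groups. These were il6 against lymphocyte-like cells and tnfa against BEC-like cells at 2 dpa. The shares of all genes called were 0.315%, 0.966% and 0.564% against neutrophil-like cells at 0, 1 and 2 dpa, 0.409%, 1.23% and 1.17% against lymphocyte-like cells, and 0.913%, 4.65% and 3.71% against BEC-like cells. For il1b at 1 dpa, macrophage-like minus lymphocyte-like was -3.25 ± 1.25 (adjusted p = 0.294).

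Receptors were taken from a list of cytokine and TNF superfamily receptors that was not limited to those of the 10 genes. More of them fell than rose at 1 and 2 dpa in macrophage-like cells and at 2 dpa in the other classes. These counts depended on the scale and are read only beside the calls over all genes. In macrophage-like cells 0 of 19 receptor genes tested rose and 8 fell at 1 dpa against mock, with a median of -1.47 over the list and -0.39 over all genes, and 7 fell at 2 dpa. Of all genes tested there, 33.1% were called at 1 dpa (977 up and 1885 down) and 24% at 2 dpa (1040 up and 1042 down). With default TMM factors 1 rose and 4 fell at 1 dpa, and 3 fell at 2 dpa. Tnfrsf9a, a receptor of the TNF receptor superfamily, averaged 35.2 CPM at 2 dpa and 443 CPM in mock (-3.89 ± 0.27, adjusted p = 1.15e-44), and il10ra, a receptor subunit for interleukin 10, averaged 91.0 and 414 CPM (-2.43). In mock, lymphocyte-like cells averaged 883 CPM of tnfrsf9a. Lymphocyte markers in macrophage-like cells were also lower at 2 dpa than in mock, and their part in the tnfrsf9a fall was not tested. In BEC-like cells 44.5% of all genes were called at 2 dpa (1512 up and 2433 down). Of the 14 receptors tested there 0 rose and 7 fell, a share of calls near that of all genes. Among the falls were tnfrsf1a, a TNF receptor (-2.34), and il6st, the signal subunit for il6 and il11a (-2.02). In lymphocyte-like cells 1 of 17 rose and 2 fell at 2 dpa, a share near the 17% of all genes called there, and with default TMM factors 0 rose and 5 fell. In neutrophil-like cells 0 of 5 rose and 2 fell at 2 dpa, where 12.6% of all genes were called.

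Genes of the NF-kB and Toll pathway, through which TNF and interleukin 1 receptors signal, fell in BEC-like cells in 16 of 29 tests at 2 dpa, with 0 rises and a median of -1.44, against -0.43 over all genes, of which 44.5% were called. With default TMM factors 9 fell and 0 rose in BEC-like cells. Nfkbiaa, which encodes an inhibitor of NF-kB, averaged 94.6 CPM at 2 dpa and 992 CPM in mock (-3.59 ± 0.15). In neutrophil-like cells, where 2 of 7 genes fell at 2 dpa, it averaged 1417 CPM at 2 dpa and 3197 CPM in mock (-1.16), a call lost with default TMM factors (-0.82, adjusted p = 0.0750) and DESeq2. In macrophage-like cells 17 of 38 fell and 0 rose at 1 dpa, against 9 falls and 4 rises with default TMM factors, and 14 fell at 2 dpa, with traf1, an adaptor of TNF receptors, at -2.43. Those counts stand beside 33.1% of all genes called at 1 dpa and 24% at 2 dpa. In lymphocyte-like cells 6 of 36 fell at 2 dpa, nfkb1 among them (-2.57), and 11 fell with default TMM factors. Of all 8394 genes tested there, 418 fell and 1011 rose, and with default TMM factors 824 fell and 678 rose. Bcl3, a nuclear member of the inhibitor family, rose in BEC-like cells at 0 dpa with 27 UMIs, against 2 in mock (ratio 9.12, 95% counting interval 2.29 to 79.2).

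The JAK-STAT and SOCS list, to which socs3a is the feedback inhibitor, had 13 falls and 0 rises among 29 genes at 1 dpa in macrophage-like cells, and 9 falls and 0 rises among 24 at 2 dpa in BEC-like cells. The share of all genes called was 33.1% in the first comparison and 44.5% in the second. There the list had a lower share of calls than all genes, taking rises and falls together. Of all 8872 genes tested in the second, 2433 fell and 1512 rose. With default TMM factors these became 5 falls and 3 rises in macrophage-like cells, and 4 falls and 1 rise in BEC-like cells. Cebpd, a transcription factor gene of the acute phase response, averaged 68.3 CPM at 1 dpa and 283 CPM in mock in BEC-like cells (-2.22). Socs3b, the paralog of socs3a, rose there at 1 dpa with 58 UMIs, against 2 in mock (ratio 5.06, 95% counting interval 1.34 to 42.8). In lymphocyte-like cells, with 3.3% of all genes called at 0 dpa, 3 of 29 fell, among them ptpn6, a phosphatase of immune receptors (-1.16), and in neutrophil-like cells 0 of 8 were called against mock at any time.

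Other cytokines changed in both directions. In macrophage-like cells 3 of 18 rose and 3 fell at 1 dpa, a share near the 33.1% of all genes called. M17, a fish cytokine of the interleukin 6 family, rose with 291 UMIs at 1 dpa, against 3 in mock (ratio 9.57, 95% counting interval 3.24 to 46.7), and mif averaged 150 CPM at 2 dpa and 17.5 CPM in mock (2.87 ± 0.48). In lymphocyte-like cells 4 of 18 rose and 1 fell at 2 dpa, beside 17% of all genes called, and with default TMM factors 2 rose and 2 fell. Il13, a type 2 cytokine, rose with 36 UMIs at 2 dpa, against 1 in mock (ratio 62.4, 95% counting interval 10.5 to 2534). Its level at 2 dpa averaged 112 CPM with an SD of 121.7, a spread between libraries that this interval does not cover. The adjusted p was 4.4e-09 in edgeR and 0.012 in DESeq2. Cd40lg had 0 UMIs at 1 dpa, against 39 in mock, at least 2.43-fold lower over the group. In BEC-like cells clcf1, also of the interleukin 6 family, had 44 UMIs at 1 dpa and 0 in mock, at least 2.56-fold higher over the group, whereas il15 (-2.81) and tgfb1a (-2.53) fell at 2 dpa.

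Of the genes that process interleukin 1, pycard, the inflammasome adaptor, rose in macrophage-like cells to 306 CPM at 2 dpa, against 37.5 CPM in mock (2.72 ± 0.34), and in lymphocyte-like cells to 79.9 CPM, against 7.08 CPM (3.54 ± 0.74). In macrophage-like cells 1 of 9 such genes rose and 3 fell at 1 dpa, beside 33.1% of all genes called, with nod1 (-2.37) and txnipa (-1.87) among the falls. In lymphocyte-like cells 1 of 9 rose at 2 dpa, beside 17% of all genes called, and 1 fell, which was nlrc3 (-3.13), whose many near-identical copies in zebrafish may share reads. In BEC-like cells 1 of 4 fell at 1 dpa, where 38.5% of all genes were called, and no such gene could be tested in neutrophil-like cells.

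The genes whose levels ran most like il1b over the 73 sums of the 4 classes were rgs2 (Pearson's r = 0.76), si:ch73-343l4.8 (0.73), si:dkey-24p1.7 (0.72), RGS13 (0.72) and mapre1a (0.72). For socs3a they were perp (0.59), sptlc3 (0.58), arhgap29a (0.58), rab11fip1a (0.58) and stag2b (0.57). Correlations were of log2(CPM + 10) over 7201 genes, and the sums share libraries and depths, so these are descriptions only.

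Mock and uninjured mCherry+ libraries, neither of them ablated, differed for some of these genes. Il1b in macrophage-like cells was 62.7, 101.6 and 67.5 CPM in mock, against 20.2, 3.69 and 20.2 CPM in uninjured mCherry+ libraries, without overlap and from 31 and 12 UMIs. In lymphocyte-like cells socs3a was 114.9, 104.9 and 119.3 CPM in mock, against 34.9, 67.8 and 44.9 CPM. This pair was not tested. In uninjured TU livers 117 macrophage-like cells had 68.6 CPM of il1b (95% counting interval 43.0 to 104) from 22 UMIs. There, 410 lymphocyte-like cells had 172.9 CPM of tnfb and 126.0 CPM of tnfsf14.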

How the data were processed

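Drop-Seq libraries of zebrafish liver cells were deposited by the authors as raw UMI counts per gene and barcode. According to their methods and processing notes, reads were aligned to GRCz11 with STAR 2.5.3 and Drop-seq tools, with FastQC 0.11.2 for quality checks. The count tables list 5000 barcodes per library, and barcodes above their library's mean total were taken as cells.

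For naming only, a background profile was subtracted and cells of the mCherry+ and GFP+ libraries were clustered (Leiden, resolution 2, 42 clusters). Clustering used 2000 variable genes without the genes described here. Clusters were named where at least 3 listed markers were at least 2-fold higher. The exact naming rule was completed after clusters, cell numbers and gene levels per cluster had been seen, and names may differ from those of the study. A doublet caller was run as an alternative only. The genes and lists were chosen with earlier results of these data known.

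Raw counts were summed per library and class (at least 10 cells, 5 for neutrophil-like cells). They were fitted with edgeR 4.0.16 (R 4.3.3, quasi-likelihood test) over all sorted mCherry+ groups with Benjamini-Hochberg adjustment, after a filter at a minimum count of 3 and a total of 15. Gene and class pairs below the filter were compared by exact two-sided permutation tests. Named list genes were, per list and class, at most the 3 with the largest change among genes called against mock with at least 20 UMIs in the higher group. Intervals are exact Poisson or binomial at 95% and, like the floor of 3 counts, cover counting error only. Alternatives were other scalings, DESeq2 1.42.0, filters, cell thresholds, clusterings, a replicate block, fits of only the 2 groups compared and the removal of each replicate. Joining the mmp13a-led cluster and leaving out shared barcodes were chosen after seeing the data. The procedure was tested on simulated data in which only a limited set of genes changed, with rises and falls drawn in like proportion. That setting cannot test the scaling where many genes change.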

Additional observations from a re-analysis of the deposited data

Results flagged for a closer look

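At 2 dpa against mock the changes of 3 genes differed between cell classes in a joint edgeR fit of the classes. For tnfa, macrophage-like minus lymphocyte-like was -4.264 (log2 changes of -1.668 and 2.596, adjusted p = 0.0122). For socs3a, macrophage-like minus BEC-like was 2.088 (-0.12 and -2.21, adjusted p = 2.44e-05). For tnfb, macrophage-like minus BEC-like was 4.181 (-0.89 and -5.07, adjusted p = 3.62e-06).

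Among the 6 libraries of uninjured TU livers, replicate 5 stood far above the others for 4 genes over all called cells. It had 8.41 CPM of tnfa (others at most 1.09), 72.58 CPM of tnfb (others at most 8.01), 45.23 CPM of tnfsf14 (others at most 5.10) and 58.9 CPM of il34 (others at most 3.77). That library held 324 of the 410 lymphocyte-like cells of this group and had the lowest median depth, with 752.5 UMIs per cell, against 1787 to 3757 in the others. The part of either in these levels was not tested. Chance alone would mark about 1 in 20 groups this way if levels were normally distributed, which was not tested. The 4 genes were marked by the same library and are not separate cases.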

How the results depend on the processing

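The 21 called changes of the 10 genes were recomputed 343 times, of which 290 stayed past the threshold, 53 did not and 0 changed direction, and 8 changes stayed past it under every alternative run. In macrophage-like sums 10 calls became 5 with DESeq2 and 6 with a minimum count of 10, where only 18 of the 42 tests could be run, and the removal of single replicates gave 5 to 11 (5 without mock replicate 2). In lymphocyte-like sums 3 calls became 5 with default TMM factors, 7 with DESeq2, 1 with no filter and 5 with only the 2 conditions compared, and single removals gave 1 to 3 (1 without mock replicate 1). Single removals gave 8 to 12 in BEC-like sums and 0 in neutrophil-like sums. Without a filter, 2 rather than 21 pairs of gene and class could not be fitted. Clustering on raw counts turned the difference in the macrophage-like share at 2 dpa against mock to 1.566 percentage points, against -0.718. With the replicate number as a block the calls were 10 in macrophage-like, 0 in neutrophil-like, 3 in lymphocyte-like and 11 in BEC-like sums. Same-numbered libraries deviated together by correlations of -0.059 to 0.118. The deviations hold counting error, so low correlations cannot decide whether the numbers pair the samples. Of 41 named list genes, 39 were called under all 3 other settings, which were default TMM factors, library size alone and DESeq2. These genes were picked for the largest called changes, so that count does not extend to the full lists. The cause of these changes was not tested. Depth limits what the small groups can show, since mock neutrophil-like cells held 22980 UMIs and 7 dpa macrophage-like cells 39750 UMIs.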

Other observations

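The GFP+ library from uninjured fish, which enters no comparison, held 0 UMIs of il1b, tnfa, tnfb, tnfsf14 and il6 in its called cells and 30 of socs3a. In uninjured TU livers, stellate-like cells had 390.3 CPM of socs3a (95% counting interval 288.7 to 515.9) from 56 cells, and hepatocyte-like cells had 46.3 CPM.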
